A study of Rattus norvegicus with 18 samples.

Results

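Livers of rats dosed with carbon tetrachloride (CCl4) for 84 days were compared with livers of control rats of the same day. The comparison rests on 6 of the 18 arrays of the series, 3 from CCl4 rats and 3 from controls, which were chosen by their sample titles. CCl4 rats received 100 mg/kg in corn oil every day by gavage, in a volume of 5 mL/kg. Control rats were given basal diet and no compound. Their titles call them vehicle, and whether they were gavaged with corn oil is not given in the sources used here, so CCl4 cannot be told apart from its oil vehicle and the gavage. Side comparisons use the 3 rats dosed with diethylnitrosamine (DEN) at 4 mg/kg in saline for 84 days, and the 3 CCl4 rats and 3 controls of day 28. All were male F344/NSlc rats, bought at 5 weeks of age, and each array is taken as 1 rat. The design text of the series mentions 28 days alone, whereas titles and treatment protocol give both days.

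CCl4 is turned into a reactive radical by Cyp2e1, a cytochrome P450 of the hepatocytes around the central vein, and kills those hepatocytes. Surviving hepatocytes divide to replace them. With repeated dosing, stellate cells, which store vitamin A in the normal liver, become collagen-secreting myofibroblasts, monocytes enter from the blood as macrophages, and bile duct cells multiply. The outcome is fibrosis, a scar of collagen and elastic fibres between and around the lobules.

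Every level below is a log2 signal, that is, the log2 of the processed spot signal minus the log2 of the 75th percentile of the same array. A difference of 1 is thus a 2-fold difference. Differences come from limma with their standard error (SE), and a gene is called changed where its p-value is under 0.05 after Benjamini-Hochberg adjustment for the 10783 genes tested. Genes not well above background on any array of a group have only a bound there, which is given as "at least N-fold". With 3 rats a group, p-values rest on the spread between rats within each group, pooled over all 18 arrays of the series. In whole liver, more cells of a type and more RNA per cell cannot be told apart.

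CCl4 and control livers formed separate groups. Correlations over the genes tested were 0.9935 to 0.9958 within the groups and 0.9241 to 0.9365 between them. Hepatocyte genes were bright in both groups, as the label liver requires: Alb, the gene of serum albumin, had log2 signals of 9.12, 9.59 and 9.27 in CCl4 livers, against 9.98, 9.98 and 9.93 in control livers. Between 54.7% and 57.0% of probes were well above background on CCl4 arrays, against 49.2% to 51.2% on control arrays. Relative to 280 spike-in control spots, the 75th percentile itself lay 0.55 higher (log2) in CCl4 livers. Scaling to the spike-ins therefore moved the median difference of all genes to 0.45, against −0.10 under the main scaling, and falls of under about that size are relative to the other genes of the array. Some larger falls lost their call under spike-in scaling too. The 3 control arrays and CCl4 replicate 1 shared a slide, and CCl4 replicates 2 and 3 were on another slide scanned in another session. Values within the shared slide, where CCl4 replicate 1 stands alone, are given beside the main gene groups. With 1 CCl4 liver in that fit, its calls rest on the spread of the other groups and not on that between CCl4 livers. Among the day 28 CCl4 arrays, replicate 2 stood apart from replicates 1 and 3, with 75.19 on the leading principal component (61.2% of the variance), against 37.68 and 25.26.

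Expression was altered in most of the genes measured. Of 10783 genes, 6993 were called (64.9%), with 3039 higher (28.2%) and 3954 lower (36.7%) in CCl4 livers. Rises were larger than falls: the median rise was 2.19-fold and the median fall 1.46-fold, and 1676 genes rose at least 2-fold (15.5% of genes tested), whereas 701 fell at least 2-fold (6.50%). At least 16-fold, the numbers were 94 rises and 26 falls. All 3 CCl4 arrays lay on the same side of all control arrays in 7795 genes (72.3%), above them in 3360 (31.2%) and below them in 4435 (41.1%). Of the genes that rose, 510 were not well above background on any control array. Counts of gene lists below are to be read against these shares. Genes called and changed at least 2-fold in either direction were 2377 (22.0%). The split between rises and falls depends on the scaling, since 43.5% of calls were rises under the main scaling, 51.0% after quantile normalization and 89.1% after scaling to the spike-ins.

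Most scar genes measured were higher in CCl4 livers. Of 38 collagens and other structural matrix genes, 26 were measured, of which 23 rose and 1 fell, with a median difference of 2.74 (all genes −0.10). Of these, 5 passed the filter on dim probes through the CCl4 arrays alone and had to differ. Among the 21 measured on all 6 arrays, 18 rose and 1 fell, with a median of 2.52. Within the shared slide the median of the 26 was 2.61, with 22 rises and 1 fall.

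Collagen I and III, the fibrillar collagens of scar, were higher in every CCl4 liver. Col1a1 had log2 signals of 3.18, 3.41 and 4.10 in CCl4 livers, against 0.50, 0.29 and 0.59 in control livers, a difference of 3.10 ± 0.37 (SE, adjusted p = 7.77e-06). Col1a2, the partner chain, had 5.62, 5.58 and 6.06 in CCl4 livers and 2.28, 2.27 and 2.31 in control livers, a difference of 3.47 ± 0.30 (adjusted p = 6.48e-07). For Col3a1 the values were 6.19, 6.13 and 6.85 in CCl4 livers, against 3.75, 3.47 and 3.61 in control livers (2.78 ± 0.25, adjusted p = 7.03e-07). CCl4 replicate 3 was the highest of its group for all of them, and no CCl4 value came near a control value. Probes of Col1a1 differed in size, from 3.10 for the probe used to 5.66, and not in direction. The basement membrane chain Col4a1 rose by 2.39 ± 0.23, whereas Col18a1, the source of endostatin, differed by −0.13 and was not called.

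Eln, the gene of elastin, had 1.54, 1.44 and 1.99 in CCl4 livers, against −1.51, −1.45 and −1.66 in control livers, a difference of 3.20 ± 0.24 (adjusted p = 2.1e-07). Mgp, whose product inhibits calcification of matrix, had 7.52, 7.48 and 7.36 in CCl4 livers and 3.30, 3.03 and 2.93 in control livers, a difference of 4.37 ± 0.33 (adjusted p = 1.82e-07), which corresponds to a rise of 20.7-fold. Fbln1, an elastic fibre protein, was not well above background in any control liver and was at least 12.7-fold higher with CCl4. Fn1, the gene of fibronectin, which hepatocytes also secrete into plasma, went the other way with 6.25, 6.09 and 5.93 in CCl4 livers, against 7.24, 7.15 and 7.09 in control livers (−1.07 ± 0.11, adjusted p = 2.45e-06).

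The enzymes that build and cut matrix followed in part. Of 34 such genes, 25 were measured, 17 rose and 2 fell (median 1.65). On all 6 arrays 19 were measured, of which 11 rose and 2 fell (median 0.96). Timp1, an inhibitor of matrix metalloproteases, had 5.18, 5.55 and 5.66 in CCl4 livers, against 1.75, 1.81 and 1.84 in control livers (3.66 ± 0.25, adjusted p = 1.03e-07). Mmp2, the gelatinase of stromal cells, had 4.35, 3.95 and 4.72 in CCl4 livers and 1.42, 1.17 and 1.25 in control livers (3.06 ± 0.29, adjusted p = 1.42e-06). Mmp12, the elastase of macrophages, was not well above background in control livers and rose at least 73.2-fold. Mmp7, a protease of injured epithelium, rose at least 7.63-fold. Among the collagen cross-linking enzymes the members split: Loxl1 rose by 4.43 ± 0.40, whereas Loxl4 fell to −1.08, −0.82 and −0.85 in CCl4 livers, against 1.31, 1.1 and 1.42 in control livers (−2.20 ± 0.17, adjusted p = 2.15e-07).

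**Figure D1:**
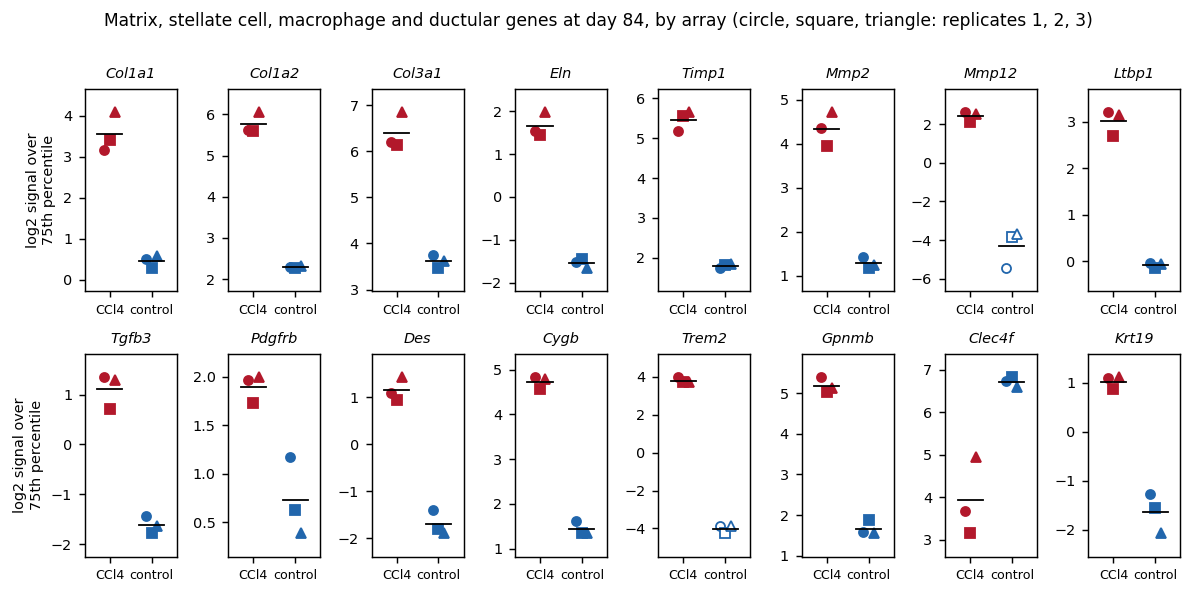
Log2 signal over the array's 75th percentile (y axis) of 16 matrix, stellate cell, macrophage and bile duct genes in the 3 CCl4 livers (left of each panel) and the 3 control livers (right) of day 84. Circles, squares and triangles are replicates 1, 2 and 3, bars are group means, and open symbols mark a group that was not well above background on all 3 arrays. CCl4 values lie above all control values in each panel except that of Clec4f, where they lie below (3.69, 3.15 and 4.94, against 6.73, 6.83 and 6.59).

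TGF-beta, the main cytokine that drives stellate cells to make collagen, is secreted in a latent form bound to LTBP proteins and signals through Tgfbr1, Tgfbr2 and the Smad factors. Of 39 genes of the TGF-beta and BMP pathway, 34 were measured, of which 16 rose and 9 fell (median 0.81). Of these, 5 passed the filter through the CCl4 arrays alone, and the 29 measured on all 6 arrays held 12 rises and 9 falls with a median of 0.21. Among the ligands and latency proteins, Tgfb1 had −0.25, −0.29 and −0.19 in CCl4 livers, against −1.68, −1.46 and −1.77 in control livers (1.40 ± 0.12, adjusted p = 5.42e-07), and Tgfb3 rose by 2.73 ± 0.23. Ltbp1 had 3.21, 2.71 and 3.16 in CCl4 livers and −0.03, −0.14 and −0.05 in control livers (3.10 ± 0.23, adjusted p = 1.75e-07). Bmp7, a ligand of the opposing BMP branch, rose by 1.79 ± 0.14. Among the fallen members, the receptor gene Tgfbr2 fell by 0.77 on the log2 scale, and Smad7, an inhibitory Smad, by 0.48. The fall of Tgfbr2 was not called under spike-in scaling (−0.22). The fall of Smad7 was not called without control replicate 2 (adjusted p = 0.0533 by limma) and became 0.07 under spike-in scaling. Inhba, an activin chain, had 1.03, 1.62 and 1.66 in CCl4 livers, against 4.67, 4.44 and 3.77 in control livers (−2.86 ± 0.36, adjusted p = 1.32e-05), and Inhbe, an activin chain of hepatocytes, fell by 2.21.

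Markers of stellate cells and myofibroblasts rose in 13 of the 17 measured genes of a list of 22, and none fell (median 1.60, and 1.57 within the shared slide). All 17 were measured on all 6 arrays. Des, the gene of desmin, an intermediate filament of stellate cells, had 1.08, 0.93 and 1.42 in CCl4 livers, against −1.39, −1.80 and −1.90 in control livers (2.84 ± 0.35, adjusted p = 1.18e-05). Cygb, a globin of stellate cells, had 4.83, 4.57 and 4.78 in CCl4 livers and 1.62, 1.35 and 1.34 in control livers (3.29 ± 0.28, adjusted p = 5.93e-07). Pdgfrb, the receptor for the growth factor PDGF, had 1.97, 1.73 and 2.00 in CCl4 livers and 1.17, 0.63 and 0.38 in control livers, a smaller difference of 1.17 ± 0.23 (adjusted p = 0.000563). Acta2, the smooth muscle actin by which myofibroblasts are usually recognised, had −0.82, −0.72 and −0.78 in CCl4 livers, against −1.66, −2.11 and −2.35 in control livers. The difference of Acta2, 1.27 ± 0.50 (adjusted p = 0.039), was not called when control replicate 2 or 3 or any of the CCl4 arrays was left out (adjusted p 0.0725 to 0.111). Lrat, which makes the stored retinyl ester, differed by 0.43 and was not called. The summed linear signal of the 17 markers was 197 to 212 times the array's 75th percentile in CCl4 livers, against 118 to 129 times in control livers.

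Genes of cell division were higher throughout. All 33 measured mitosis and spindle genes of a list of 38 rose, by 1.12 to 4.44 with a median of 3.17, and 13 of them passed the filter through the CCl4 arrays alone. The other 20 were measured on all 6 arrays and rose by a median of 3.11. Within the shared slide 32 of 33 were called higher (median 3.01). Genes of this kind are controlled over the cell cycle through a pair of short promoter elements. These are the cell cycle homology region (CHR, letters TTTGAA), bound by the DREAM and MuvB complexes, and the CCAAT box, bound by NF-Y. The promoters of 4 of the risen genes are printed here because they show how these letters are placed, from 250 bases before to 50 bases after the gene start in RefSeq build GRCr8. They lie at chr20:19265043-19265342 (Cdk1, plus strand), chr1:199952544-199952843 (Mki67, minus strand), chr8:71320535-71320834 (Kif23, minus strand) and chr2:33655176-33655475 (Ccnb1, minus strand). Capitals mark TTTGAA and CCAAT on either strand, so that TTCAAA and ATTGG are marked too:
Cdk1: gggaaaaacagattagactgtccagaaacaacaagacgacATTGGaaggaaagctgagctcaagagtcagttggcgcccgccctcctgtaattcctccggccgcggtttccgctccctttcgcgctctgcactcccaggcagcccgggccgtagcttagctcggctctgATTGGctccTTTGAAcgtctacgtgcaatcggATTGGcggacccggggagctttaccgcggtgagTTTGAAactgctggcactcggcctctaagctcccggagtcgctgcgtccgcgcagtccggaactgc
Mki67: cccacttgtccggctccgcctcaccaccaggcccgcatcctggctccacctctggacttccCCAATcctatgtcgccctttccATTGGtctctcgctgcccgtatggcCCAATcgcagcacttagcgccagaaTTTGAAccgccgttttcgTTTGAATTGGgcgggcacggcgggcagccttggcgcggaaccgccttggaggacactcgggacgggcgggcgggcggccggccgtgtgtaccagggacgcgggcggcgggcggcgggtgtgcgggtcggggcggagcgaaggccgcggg
Kif23: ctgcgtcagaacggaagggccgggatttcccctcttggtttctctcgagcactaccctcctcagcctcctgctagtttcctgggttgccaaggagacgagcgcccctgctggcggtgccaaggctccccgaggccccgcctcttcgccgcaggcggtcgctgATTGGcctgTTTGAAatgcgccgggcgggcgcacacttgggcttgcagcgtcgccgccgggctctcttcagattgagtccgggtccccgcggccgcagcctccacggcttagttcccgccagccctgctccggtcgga
Ccnb1: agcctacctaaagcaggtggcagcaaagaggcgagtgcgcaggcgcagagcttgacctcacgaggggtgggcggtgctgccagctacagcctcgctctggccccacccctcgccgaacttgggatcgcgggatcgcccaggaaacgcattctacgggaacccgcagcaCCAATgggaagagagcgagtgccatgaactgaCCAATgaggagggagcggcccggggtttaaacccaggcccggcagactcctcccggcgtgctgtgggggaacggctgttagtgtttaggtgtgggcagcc

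TTTGAA stood 72 and 16 bases before the start of Cdk1 and 79 bases before that of Kif23. In Mki67 it stood 117 and 99 bases before the start, the nearer match sharing a base with a CCAAT box. Ccnb1 held CCAAT boxes 82 and 50 bases before its start and no TTTGAA in this window. Of 28 mitosis genes with a promoter in the table, 18 held TTTGAA (64.3%), compared with 11.9% of the 9317 promoters of genes tested and 18.3% of all 33469 promoters. CCAAT was found in 21 of the 28 (75%), compared with 38% of the genes tested. Promoters with both motifs were 16 of 28 (57.1%), compared with 4.92% of the genes tested. Matrix genes, which rose in the same livers, had TTTGAA in 1 of 15 promoters (6.67%), and replication genes in 3 of 27 (11.1%). These are matches of letters and not tested binding sites.

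Among the genes of the printed promoters, Cdk1, the kinase that starts mitosis, had 3.88, 3.75 and 4.10 in CCl4 livers, against 0.22, −0.12 and 0.93 in control livers (3.56 ± 0.29, adjusted p = 3.85e-07). Mki67, the gene of the proliferation antigen Ki-67, had 2.89, 2.93 and 3.14 in CCl4 livers and −0.11, −0.33 and 0.19 in control livers (3.07 ± 0.20, adjusted p = 6.94e-08). Ccnb1, the cyclin partner of Cdk1, had 1.49, 1.69 and 2.10 in CCl4 livers and −1.79, −1.95 and −1.08 in control livers (3.36 ± 0.33, adjusted p = 1.51e-06). The groups were far apart in each, and control replicate 3 was the highest control for all of them. Kif23, a kinesin of cytokinesis, was not well above background in control livers and rose at least 9.13-fold.

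Replication genes rose less. Of 39 genes, 32 were measured, 28 rose and 1 fell (median 1.21), and on all 6 arrays 23 rose and 1 fell of 26 (median 1.18). Rrm2, a subunit of the enzyme that makes deoxynucleotides, had 4.52, 4.52 and 5.11 in CCl4 livers, against 1.0, 0.41 and 1.66 in control livers (3.70 ± 0.29, adjusted p = 2.84e-07). Mcm2, part of the replicative helicase, rose by 1.41 ± 0.18, and Pcna, the sliding clamp, by 0.81 ± 0.12. Among 25 genes of G1 and the immediate early response, 16 rose and 3 fell (median 0.84). Without the 5 that passed the filter through the CCl4 arrays alone, 11 rose and 3 fell of 20 (median 0.45). Ccnd1, the cyclin of the G1 checkpoint, had 4.68, 4.83 and 4.87 in CCl4 livers and 3.95, 3.89 and 4.03 in control livers (0.84 ± 0.16, adjusted p = 0.000474). Ccne1, the cyclin of the S phase entry, rose by 2.83 ± 0.29, and the CDK inhibitors rose too, Cdkn2c by 2.78 ± 0.15, with 2 of 3 control arrays well above background, and Cdkn2b by 1.74 ± 0.27. Myc differed by 1.05 ± 0.45 and missed the threshold (adjusted p = 0.0542). Cdkn1a, the inhibitor p21, differed by −0.61 with the probe used, while its probes ranged from −0.61 to 1.41 and were called in both directions, so that its direction is not settled here.

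Growth factor genes were mixed. Of 37 growth factors and receptors of liver regeneration, 26 were measured and 9 were below the filter, and 8 rose and 10 fell (median −0.22). Without the 3 that passed the filter through the CCl4 arrays alone, 5 rose and 10 fell of 23 (median −0.35). Under spike-in scaling 9 of the 26 were higher and 5 lower (median 0.33). Egfr, the receptor of epidermal growth factor, had 3.80, 3.65 and 3.78 in CCl4 livers, against 4.91, 5.34 and 5.26 in control livers (−1.42 ± 0.25, adjusted p = 0.00019). Met, the receptor of hepatocyte growth factor, fell by 0.73 on the log2 scale, and its ligand Hgf differed by −0.30 and was not called. The fall of Met was not called under spike-in scaling (−0.18). Igf1, the growth hormone-dependent factor that liver gives to the blood, had 7.60, 7.87 and 8.04 in CCl4 livers and 9.08, 9.06 and 8.98 in control livers (−1.20 ± 0.21, adjusted p = 0.000174). Erbb2, which adult hepatocytes hardly express, rose at least 5.45-fold. Igfbp2, a binding protein of the IGFs, had 3.22, 3.02 and 2.10 in CCl4 livers, against −0.22, −0.66 and −0.55 in control livers (3.26 ± 0.34, adjusted p = 3.02e-06). Tnfrsf12a, the receptor of TWEAK, a cytokine that stimulates liver progenitor cells, rose by 1.85 ± 0.29.

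Bile duct genes were among the strongest gains. Of 18 cholangiocyte and ductular markers, 15 were measured, 13 rose and 2 fell (median 2.72, and 2.97 within the shared slide), with 7 passing the filter through the CCl4 arrays alone. On all 6 arrays 8 were measured, of which 6 rose and 2 fell (median 2.08). Krt19, a keratin of bile ducts, had 1.1, 0.88 and 1.12 in CCl4 livers, against −1.28, −1.55 and −2.07 in control livers (2.66 ± 0.42, adjusted p = 8.66e-05). Epcam, an adhesion protein of ducts and progenitor cells, had 2.04, 1.59 and 1.79 in CCl4 livers and 0.13, 0.01 and 0.10 in control livers (1.73 ± 0.21, adjusted p = 8.59e-06). Cftr, the chloride channel of cholangiocytes, was not well above background in control livers and rose at least 21.9-fold. Aqp1, a water channel of ducts and small vessels, rose by 2.72 ± 0.21. The summed linear signal of the 15 markers was 42.4 to 54.5 in CCl4 livers, against 12.1 to 13.6 in control livers.

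Markers of preneoplastic foci and fetal liver rose in 18 of 23 measured genes of a list of 26 and fell in 2 (median 2.24), 3 of them measured through the CCl4 arrays alone. Without these, 15 rose and 2 fell of 20 (median 2.10). Gpx2, a glutathione peroxidase of gut epithelium, had 5.00, 5.22 and 5.30 in CCl4 livers, against −0.11, −0.83 and −0.79 in control livers (5.75 ± 0.32, adjusted p = 1.99e-08). H19, an imprinted noncoding RNA of fetal liver, had 4.02, 4.01 and 3.68 in CCl4 livers and −1.57, −2.17 and −2.10 in control livers (5.85 ± 0.85, adjusted p = 4.42e-05). Its neighbour Igf2 differed by 0.07 and was not called. Gstp1, the placental glutathione transferase used to stain foci in rat liver, showed a smaller rise of 1.29 ± 0.11, with 5.71, 5.62 and 5.66 in CCl4 livers and 4.30, 4.38 and 4.44 in control livers (adjusted p = 4.21e-07). Afp, the gene of alpha-fetoprotein, rose by 0.72 ± 0.14, and Abcc3, an exporter of the basolateral membrane, by 3.72 ± 0.24.

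**Figure D2:**
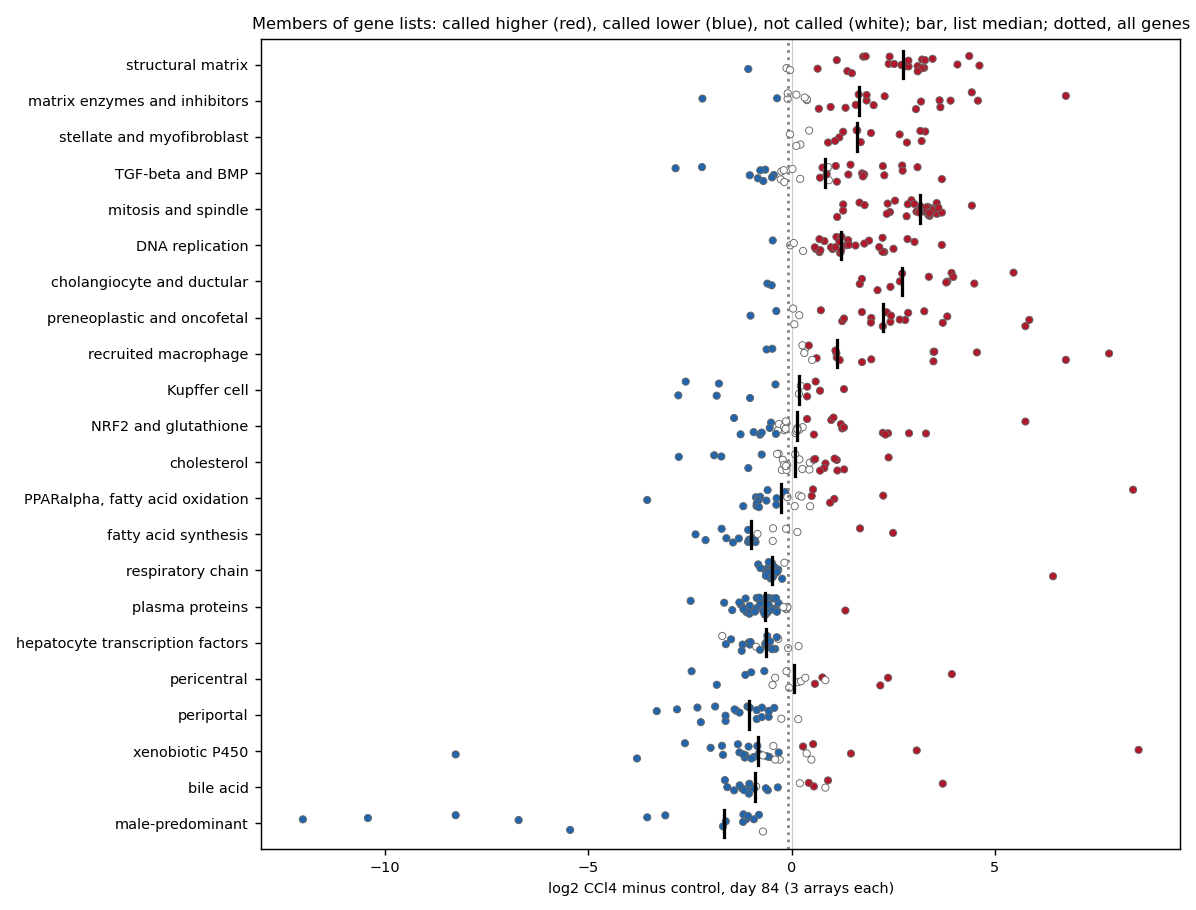
Difference between CCl4 and control livers of day 84 (log2, x axis) of every measured member of 22 gene lists (rows). Red points were called higher, blue points called lower and white points not called, black bars are list medians, and the dotted line is the median of all genes, −0.10. Mitosis genes lie wholly to the right (1.12 to 4.44), whereas hepatocyte transcription factors lie between −1.71 and 0.17.

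Macrophage genes moved in both directions. Of 14 markers of the resident Kupffer cells 13 were measured, of which 5 rose and 6 fell, with 7 rises and 4 falls under spike-in scaling. The fallen members were Clec4f, Marco, Cd5l, Vsig4, Cd163 and Mrc1, the last not called without control replicate 3 or CCl4 replicate 2 and at −0.16 within the shared slide. Clec4f, a lectin restricted to Kupffer cells, had 3.69, 3.15 and 4.94 in CCl4 livers, against 6.73, 6.83 and 6.59 in control livers (−2.79 ± 0.32, adjusted p = 6.64e-06). Marco, Cd5l and Vsig4, a scavenger receptor, a secreted scavenger protein and a complement receptor, fell by 2.61, 1.84 and 1.79 on the log2 scale. CCl4 replicate 3 was the highest of its group for Clec4f, Marco, Cd5l, Vsig4 and Cd163, and stayed below every control value for each of them. Folr2, a folate receptor of tissue macrophages, went up by 1.29 ± 0.13, and the complement genes C1qa and C1qb were not called.

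Markers of macrophages recruited to scars rose in 14 of 20 measured genes of a list of 21 and fell in 2 (median 1.11). Without 6 members that passed the filter through the CCl4 arrays alone, 8 rose and 2 fell of 14 (median 0.56). Trem2, a lipid-sensing receptor that marks scar-associated macrophages, had 3.98, 3.72 and 3.72 in CCl4 livers and was not well above background in any control liver, a rise of at least 190-fold (adjusted p = 2.03e-06). Gpnmb, a glycoprotein of lipid-laden macrophages, had 5.39, 5.03 and 5.13 in CCl4 livers, against 1.59, 1.87 and 1.55 in control livers (3.51 ± 0.18, adjusted p = 9.04e-09). Lgals3, the gene of galectin-3, rose by 1.96 ± 0.15. General macrophage genes changed less: Cd68 rose by 0.61 ± 0.13, whereas Csf1r differed by 0.27 and was not called. Apoe, which hepatocytes also make, fell by 0.62 on the log2 scale. The summed linear signal of the 20 genes was lower, at 1136 to 1339 in CCl4 livers, against 1361 to 1454 in control livers.

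Chemokine genes rose in 17 of 28 measured members of a list of 32 and fell in 6 (median 0.99), and 7 passed the filter through the CCl4 arrays alone. Without these, 11 rose and 6 fell of 21 (median 0.53). Ccl2, which draws monocytes, had 1.52, 1.04 and 1.17 in CCl4 livers, against −1.96, −2.40 and −2.37 in control livers (3.49 ± 0.55, adjusted p = 8.55e-05). Ccl21, a lymphatic chemokine that draws T cells and dendritic cells, had 5.69, 5.37 and 4.63 in CCl4 livers and 1.24, 0.68 and 0.21 in control livers (4.52 ± 0.31, adjusted p = 8.54e-08). Cx3cl1, a membrane-bound chemokine of epithelium and endothelium, rose by 3.90 ± 0.34. The receptor Cxcr4 rose by 1.73 ± 0.12, whereas its ligand Cxcl12 fell by 1.68 on the log2 scale. Among lymphocytes the markers split. Cd3d, part of the T cell receptor complex, rose by 1.34 ± 0.18 and Cd8b by 2.33 ± 0.19, while Gzma, a granzyme of killer cells, had −0.62, −0.94 and −1.12 in CCl4 livers, against 1.46, 1.49 and 1.21 in control livers (−2.28 ± 0.20, adjusted p = 5.4e-07). In all, 8 of 17 measured T and NK cell genes of a list of 22 rose and 3 fell, and 3 of the 17 passed the filter through the CCl4 arrays alone. The 13 measured on all 6 arrays held 7 rises and 3 falls. Of 8 measured B cell genes of a list of 12, 1 rose and 3 fell (3 rises and 1 fall under spike-in scaling). The 5 measured on all 6 arrays held 1 rise and 2 falls. Neutrophil genes rose in 6 of 8 measured members of a list of 13 and fell in 1, with S100a8 up by 1.32 ± 0.32 and S100a9 by 1.42 ± 0.34. Without the 2 that passed the filter through the CCl4 arrays alone, 4 rose and 1 fell of 6. Lcn2, a neutrophil and acute phase gene, was at least 18.3-fold higher.

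Vessel markers gave 5 rises and 4 falls among 15 measured endothelial genes of a list of 21 (median 0.10), and 10 rises and 1 fall under spike-in scaling (median 0.66). The summed linear signal of the 15 was 49.8 to 54.2 in CCl4 livers, against 75.8 to 89.5 in control livers. Kdr, the receptor of VEGF, had 3.81, 3.66 and 3.69 in CCl4 livers, against 5.13, 5.32 and 5.33 in control livers (−1.54 ± 0.13, adjusted p = 3.71e-07), and Oit3, a secreted protein of sinusoidal cells, fell by 0.89. The fall of Oit3 was not called under spike-in scaling (−0.34). Tie1, an endothelial receptor, went up by 1.52 ± 0.17 and the sialomucin gene Emcn by 1.48 ± 0.21. Pecam1 differed by 0.04 with the probe used, and its probes disagreed. It was called higher under spike-in scaling (0.59) and lower with the mean of all its probes (−0.41). Of 5 measured erythroid genes of a list of 8, 3 fell, namely Hba-a1, Hbb and Alas2, the last not called without control replicate 1 or CCl4 replicate 2 or 3 (adjusted p 0.0506 to 0.0992), and 2 rose, namely Ahsp by 1.24 ± 0.29 and Slc4a1 by 0.84 ± 0.22. Their summed signal, which the globins dominate, was 353 to 696 in CCl4 livers, against 944 to 1081 in control livers. Hbb lay at 7.10, 6.20 and 6.42 in CCl4 livers and 7.80, 7.78 and 7.65 in control livers (−1.17 ± 0.22, adjusted p = 0.000352). Under spike-in scaling Hbb differed by −0.62 and was not called. Within the shared slide the median of the erythroid genes was −0.06, and the fall of Hbb was not called. Globin genes are near-identical copies that a probe may not separate. The part of blood in the immune and vessel results was not tested. Of the pancreatic acinar markers, 5 of 8 were below the filter, 1 rose and 1 fell. Of 7 adipocyte markers 3 were measured, of which Fabp4, a gene that macrophages and small vessels also express, rose at least 53.3-fold, Cidea rose by 1.83 ± 0.38 and Cidec fell by 1.04 on the log2 scale. The defining genes Adipoq and Lep were below the filter.

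Hepatocyte functions were lower across several lists. No hepatocyte transcription factor rose and 18 of 23 measured fell, of a list of 24 (median −0.63, and −0.67 within the shared slide with 14 falls). Hnf4a, the main nuclear receptor of hepatocyte identity, had 2.97, 3.03 and 2.89 in CCl4 livers, against 3.84, 4.10 and 4.03 in control livers (−1.03 ± 0.13, adjusted p = 1.53e-05). Cebpa, a factor of resting hepatocytes, had 1.12, 1.44 and 1.33 in CCl4 livers and 2.45, 2.48 and 2.63 in control livers (−1.23 ± 0.16, adjusted p = 2.21e-05). Nr1h4, the bile acid receptor FXR, fell by 0.63 on the log2 scale, a call lost under spike-in scaling (−0.08). Under spike-in scaling 7 of the 23 were called lower and 2 higher, with a median of −0.08.

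Plasma proteins fell in 35 of 40 measured genes of a list of 45 and rose in 1 (median −0.66). Apoa4, an apolipoprotein, had 7.45, 7.53 and 7.43 in CCl4 livers, against 9.96, 10.05 and 9.87 in control livers (−2.49 ± 0.09, adjusted p = 6.31e-10). Alb, whose values stand above, fell by 0.64 on the log2 scale, and F9, clotting factor IX, by 1.04. The fall of Alb was not called with quantile normalization (−0.045) or with spike-in scaling (−0.087). Kng1, the precursor of bradykinin, was the exception with 8.94, 9.28 and 8.55 in CCl4 livers, against 7.51, 7.61 and 7.68 in control livers (1.32 ± 0.18, adjusted p = 2.73e-05). Quantile normalization left 21 falls and 2 rises in this list and spike-in scaling 13 falls and 5 rises. Acute phase proteins, which the liver secretes in inflammation, split into 7 rises and 10 falls among 21 genes (median −0.18). Without the 2 that passed the filter through the CCl4 arrays alone, 6 rose and 10 fell of 19 (median −0.37). The balance of the 21 turned to 9 rises and 6 falls with quantile normalization (median 0.21) and to 10 rises and 4 falls with spike-in scaling (median 0.37). Lbp, which binds bacterial lipopolysaccharide, had 5.14, 5.42 and 5.13 in CCl4 livers, against 3.08, 2.86 and 2.86 in control livers (2.30 ± 0.19, adjusted p = 4.21e-07). Crp differed by −0.82 ± 0.31, a call that was lost when any of the 6 arrays was left out (adjusted p 0.0567 to 0.0764).

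Enzymes of periportal hepatocytes, around the portal vein where the urea cycle and gluconeogenesis take place, fell in 20 of 22 measured genes of a list of 24 and none rose (median −1.06, and −1.09 within the shared slide). Under spike-in scaling 12 of the 22 were called lower (median −0.51). G6pc1, which releases glucose from hepatocytes, had 5.84, 3.85 and 3.96 in CCl4 livers, against 7.77, 8.09 and 7.75 in control livers (−3.32 ± 0.50, adjusted p = 6.27e-05). Hal, which breaks down histidine, had 3.79, 4.34 and 3.86 in CCl4 livers and 6.86, 6.87 and 6.72 in control livers (−2.82 ± 0.26, adjusted p = 9.6e-07). Pck1, the key enzyme of gluconeogenesis, was less reduced in replicate 1, with 5.73, 4.10 and 3.99 in CCl4 livers and 6.81, 6.93 and 7.03 in control livers (−2.32 ± 0.45, adjusted p = 0.00044), and it was not called within the shared slide. Markers of pericentral hepatocytes, the cells that CCl4 injures, showed 5 rises and 5 falls among 18 measured genes of a list of 20 (median 0.05), and 9 rises and 2 falls under spike-in scaling (median 0.60). The difference between the periportal and pericentral lists was not tested. Cyp2e1, the enzyme that activates CCl4, had 7.93, 7.95 and 7.87 in CCl4 livers, against 8.28, 8.28 and 8.41 in control livers, a difference of −0.40 ± 0.24 that was not called (adjusted p = 0.145). The groups of Cyp2e1 did not overlap, and with only the arrays of both groups in the limma fit it was called lower (−0.40, adjusted p = 0.00306). Glul, glutamine synthetase of the cells next to the central vein, had 2.27, 2.11 and 2.82 in CCl4 livers and 2.54, 2.42 and 2.63 in control livers and was not called (adjusted p = 0.561). Oat, which works beside it in ammonia and ornithine metabolism, fell by 2.46, while Rhbg, an ammonium transporter, had 3.05, 3.06 and 3.69 in CCl4 livers and −0.61, −0.76 and −0.65 in control livers (3.94 ± 0.18, adjusted p = 6.21e-09).

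Cytochrome P450 enzymes for foreign compounds fell in 19 of 30 measured genes of a list of 31 and rose in 5 (median −0.82). Without the 1 that passed the filter through the CCl4 arrays alone, 4 rose and 19 fell of 29 (median −0.84). Under spike-in scaling 11 of the 30 were lower and 7 higher (median −0.27). Cyp1a2, a pericentral enzyme, fell by 1.14, a call lost without CCl4 replicate 2, where the difference was −0.94, and within the shared slide (−0.70), and Cyp2d5 fell by 1.28. Cyp3a2 differed by −0.71 and was not called, but it was called lower with only the arrays of both groups in the limma fit (−0.71). Cyp2c24 had 2.70, 2.61 and 2.75 in CCl4 livers and was not well above background in any control liver, a rise of at least 87.2-fold (adjusted p = 1.49e-10). Cyp2c genes are close copies of each other, so the probes of this family may not fully separate them. Bile acid genes fell in 13 of 20 measured members of a list of 22 and rose in 4 (median −0.90), whereas spike-in scaling gave 6 rises and 6 falls (median −0.35). Slc10a1, the bile acid uptake carrier NTCP, had 5.30, 5.27 and 5.10 in CCl4 livers, against 6.47, 6.52 and 6.52 in control livers (−1.28 ± 0.31, adjusted p = 0.00239), a call absent within the shared slide. Abcb11, the bile salt export pump, fell by 0.59, a call lost under spike-in scaling (−0.04). Cyp7a1, the rate-limiting enzyme of bile acid synthesis, differed by 0.83 ± 0.38 and was not called (adjusted p = 0.0673). Some alternatives called it higher, among them quantile normalization (0.98) and spike-in scaling (1.38), so its call depends on the processing.

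Genes that rat liver expresses more in males held some of the largest falls. In male rats the pulsatile secretion of growth hormone keeps these genes on. Of 16 male-predominant genes 15 fell and none rose (median −1.66, and −1.84 within the shared slide). Of the 16, 1 passed the filter through the control arrays alone, and of the 15 measured on all 6 arrays 14 fell (median −1.62). Under spike-in scaling 10 of the 16 were called lower (median −1.10). Cyp2c11, the main male-specific cytochrome P450 of rat liver, had 0.27, 1.66 and 1.56 in CCl4 livers, against 9.46, 9.46 and 9.38 in control livers (−8.27 ± 0.92, adjusted p = 4.81e-06). Stac3 had −4.20, −3.98 and −3.69 in CCl4 livers and 6.65, 6.28 and 6.48 in control livers (−10.43 ± 0.78, adjusted p = 1.82e-07). Car3, carbonic anhydrase III, fell by 5.45 and Hao2, a peroxisomal hydroxy acid oxidase, by 3.11 on the log2 scale. Cyp3a2 was the member not called. Srd5a1 stands in the female list as well, so its fall is counted in both lists. Srd5a1 was not called without control replicate 2 or CCl4 replicate 3 and was at −0.84 within the shared slide.

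The major urinary proteins, small carriers of pheromones secreted by male liver, were also lower. Mup5 had 1.0, 2.39 and 4.53 in CCl4 livers, against 9.85, 9.95 and 9.88 in control livers (−7.25 ± 1.27, adjusted p = 0.000204). Obp3, of the same family, had 1.47, 2.71 and 4.79 in CCl4 livers and 9.71, 9.78 and 9.64 in control livers (−6.72 ± 1.16, adjusted p = 0.000181). Mup4 had −5.01, −3.86 and −3.50 in CCl4 livers, where 2 of 3 arrays were well above background, against 8.06, 7.93 and 7.73 in control livers. In Mup4, Mup5, Obp3, Mup4l1, Mup4l3 and Mup4l4 alike, CCl4 replicate 1 was the lowest and replicate 3 the highest, and even replicate 3 lay far below the controls. The family members are near-identical copies, so their probes may read each other and do not count as separate genes. The CCl4 livers varied more than the controls here: for Mup5 the SD was 1.78 over the CCl4 livers and 0.0523 over the control livers.

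Female-predominant genes did not move as a group, with 3 rises and 2 falls among 8 measured of a list of 9 (median −0.29). Of these, 2 passed the filter through the CCl4 arrays alone. The 6 measured on all 6 arrays held 1 rise and 2 falls (median −0.47). Cyp2c12, the female-specific counterpart of Cyp2c11, had 4.05, 3.44 and 3.59 in CCl4 livers, against 0.71, 0.80 and 0.34 in control livers (3.08 ± 0.16, adjusted p = 1.3e-08). Prlr, the prolactin receptor, had 1.60, 1.05 and 0.47 in CCl4 livers and −5.41, −4.78 and −2.02 in control livers, where 1 of 3 arrays was well above background (5.11 ± 0.88, adjusted p = 0.000171). Cux2, a female-specific factor, differed by −0.28 and was not called, and Cyp2c7 fell by 2.63. Sult2a2, a hydroxysteroid sulfotransferase, rose by 7.25 ± 0.77 with 2 of 3 control arrays well above background, while its close copy Sult2a1 differed by −0.65 and was not called. With only the arrays of both groups in the limma fit, Sult2a1 was called lower (−0.65).

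**Figure D3:**
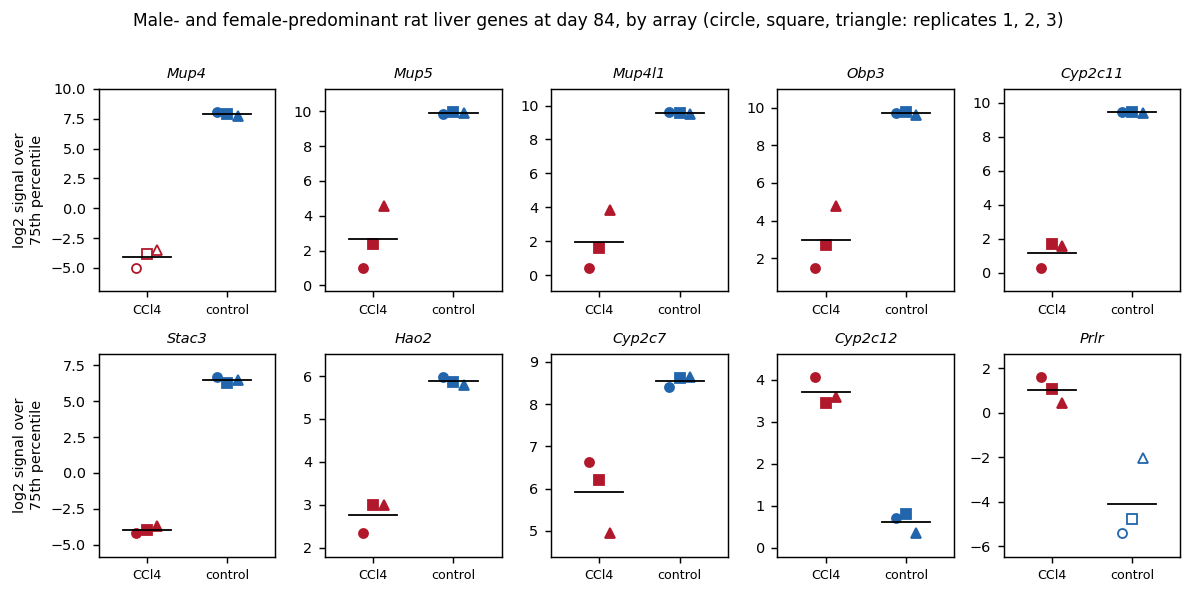
Log2 signal over the array's 75th percentile (y axis) of 10 male- or female-predominant rat liver genes in the 3 CCl4 livers (left of each panel) and the 3 control livers (right) of day 84. Circles, squares and triangles are replicates 1, 2 and 3, bars are means, and open symbols mark a group not well above background on all 3 arrays. The urinary protein genes spread over several log2 units in CCl4 livers (Mup5 1.0, 2.39 and 4.53) and lie close together in controls (9.85, 9.95 and 9.88), whereas Cyp2c12 and Prlr are higher in CCl4 livers.

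Beyond the lists, the largest falls included Inmt, a methyltransferase of indoleamines, which was at least 631-fold lower in CCl4 livers, where no array was well above background, against 4.83, 5.21 and 4.87 in control livers. Aox3, an aldehyde oxidase, was at least 103-fold lower. Lhx8, a LIM homeobox gene, had −3.44, −3.57 and −6.44 in CCl4 livers, with 2 of 3 arrays well above background, against 2.86, 3.11 and 2.80 in control livers (−7.41 ± 0.82, adjusted p = 4.56e-06). Dhrs7l1 fell by 8.37, with 1 of 3 CCl4 arrays well above background. Among the largest rises, Cdhr5, a brush border protocadherin, rose at least 34.7-fold and Gucy2c, the gut receptor of guanylin, at least 23.0-fold. Bex1 had 3.50, 2.20 and 3.13 in CCl4 livers and rose at least 104-fold. Epdr1, Lypd1 and Pnoc, the gene of the nociceptin precursor, rose at least 32.1-fold, 23.4-fold and 20.4-fold. None of these 6 was well above background in any control liver.

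Fatty acid and triglyceride synthesis fell in 12 of 19 measured genes of a list of 22 and rose in 2 (median −0.99). Under spike-in scaling 9 of the 19 were lower and 4 higher (median −0.44). Scd, which desaturates fatty acids, had 6.44, 6.31 and 5.56 in CCl4 livers, against 8.08, 8.73 and 8.60 in control livers (−2.36 ± 0.32, adjusted p = 2.38e-05). Acaca, the first enzyme of the pathway, fell by 1.44 on the log2 scale. Fasn fell by 1.72, a call absent within the shared slide, and the fatty acid carrier Cd36 rose by 2.50 ± 0.32. Cholesterol genes showed 10 rises and 5 falls among 29 measured of a list of 30 (median 0.09), and 17 rises and 4 falls under spike-in scaling (median 0.64). Sqle, squalene epoxidase, had 4.17, 4.10 and 3.87 in CCl4 livers, against 1.76, 1.39 and 1.82 in control livers (2.39 ± 0.23, adjusted p = 1.61e-06). Fallen members included the inhibitors of the SREBP pathway Insig1 (−1.73) and Insig2 (−2.78), the transfer protein gene Stard4 (−1.07) and the sterol exporter gene Abcg5 (−1.91).

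PPARalpha targets, which burn fatty acids, fell in 14 of 26 measured members of a list of 27 and rose in 6 (median −0.27). Under spike-in scaling 12 were higher and 5 lower (median 0.28), so that the direction of this list depends on the scaling. Acot1, a cytosolic thioesterase, had 3.76, 3.79 and 4.25 in CCl4 livers and no control array well above background, a rise of at least 207-fold (adjusted p = 2.16e-08). Vnn1, a pantetheinase, rose by 2.25 ± 0.30, whereas Cpt1a, which admits fatty acids to mitochondria, fell by 0.82. The fall of Cpt1a was not called under spike-in scaling (−0.27). Genes of the respiratory chain fell in 30 of 32 measured members of a list of 35, by small amounts (median −0.48). Sdha, of complex II, had 6.04, 6.12 and 6.0 in CCl4 livers, against 6.78, 6.80 and 6.88 in control livers (−0.77 ± 0.10, adjusted p = 2.02e-05). Under spike-in scaling the median of this list became 0.07 with 2 rises and no fall, so that its direction depends on the scaling. The exception was Cox6a2, the muscle form of a cytochrome oxidase subunit, with 3.71, 3.96 and 4.04 in CCl4 livers, against −2.75, −2.47 and −2.37 in control livers (6.43 ± 0.27, adjusted p = 2.55e-09). Its probes ranged from 2.61 to 6.43.

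Stress pathways were mixed. NRF2, which answers electrophiles, had 13 rises and 8 falls among 34 measured targets of a list of 36 (median 0.13), and 22 rises and 2 falls under spike-in scaling (median 0.68). Nqo1, a classical target, had 0.16, −0.05 and −0.38 in CCl4 livers, against −2.60, −2.17 and −2.42 in control livers (2.31 ± 0.24, adjusted p = 2.5e-06), whereas Gclc, of glutathione synthesis, differed by 0.10 and was not called. Spike-in scaling called Gclc higher (0.65). Hmox1 rose by 0.38, a call lost when control replicate 1 or 3 or CCl4 replicate 1 or 3 was left out (adjusted p 0.0821 to 0.131). Among p53 targets 6 rose and 11 fell of 22 measured of a list of 27 (median −0.24, and 0.31 under spike-in scaling). Fas, the death receptor, rose by 1.95 ± 0.18, and Mdm2, the inhibitor of p53, differed by 0.18 and was not called. Mdm2 was called higher under spike-in scaling (0.73) and with the mean of all its probes (0.27). In the ATF4 stress response 7 rose and 10 fell of 22 (median −0.06), against 11 rises and 4 falls under spike-in scaling (median 0.49). Phgdh, the first enzyme of serine synthesis, had 4.41, 4.48 and 4.07 in CCl4 livers, against 0.50, 0.34 and 0.02 in control livers (4.03 ± 0.25, adjusted p = 4.34e-08), Asns rose by 1.89 ± 0.15, and Sesn2 and Atf5 fell by 1.71 and 1.93.

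DNA methylation genes showed 1 rise and 7 falls among 13 measured of a list of 19 (median −0.26, and 0.29 under spike-in scaling). Gnmt, which consumes the methyl donor S-adenosylmethionine, had 6.48, 6.92 and 6.50 in CCl4 livers, against 8.50, 8.82 and 8.74 in control livers (−2.05 ± 0.32, adjusted p = 6.94e-05). The methyltransferases Dnmt1 and Dnmt3a differed by 0.23 and 0.25 and were not called. Under spike-in scaling both were called higher (0.78 and 0.80). The study followed up 4 genes, known from its publication, and all of them were called lower at day 84 under the main scaling. The study chose them with these samples in view, so their direction is not independent evidence. Ldlrad4, an inhibitor of TGF-beta signalling, fell by 0.70, Proc, the gene of protein C, by 1.19, Cdh17, a cadherin, by 3.13, and the factor Nfia by 1.01 on the log2 scale. Under spike-in scaling 3 of the 4 were called lower, and Ldlrad4 was not called (−0.15). For Cdh17 the values were 1.65, 1.55 and 2.71 in CCl4 livers, against 5.12, 5.18 and 4.99 in control livers (adjusted p = 3.6e-06).

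Genes of cell contact split into 9 rises and 11 falls among 28 measured of a list of 29 (median −0.06, and 0.49 under spike-in scaling). Without the 2 that passed the filter through the CCl4 arrays alone, 7 rose and 11 fell of 26 (median −0.13). Gjb1, the main gap junction protein of hepatocytes, had 3.32, 3.51 and 3.37 in CCl4 livers, against 4.56, 4.58 and 4.59 in control livers (−1.18 ± 0.19, adjusted p = 9.24e-05). Cdh1, the gene of E-cadherin, differed by 0.16 and was not called, and Krt8, an epithelial keratin, rose by 1.68 ± 0.23. Interferon-stimulated genes showed 4 rises and 7 falls among 22 measured of a list of 24 (median −0.07, and 0.48 under spike-in scaling), with Isg15 up by 1.26 ± 0.22, Oasl up by 2.15 ± 0.29 and Irf7 and Mx1 not called. Irf7 and Mx1 were called higher under spike-in scaling (0.96 and 0.73). Clock genes showed 2 rises and 6 falls among 15 measured of a list of 20 (median −0.50, and 0.05 under spike-in scaling). Bmal1, the core clock factor, had −1.36, −1.86 and −0.65 in CCl4 livers and 1.03, 0.48 and −0.57 in control livers (−1.60 ± 0.35, adjusted p = 0.00118). CCl4 replicate 3 came closest to control replicate 3, and the time of day of sampling is not given in the sources used here.

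The response of day 84 was set against that of day 28, where the CCl4 effect of each day is measured against that day's own controls. The effects differed in 666 of the 10783 genes (6.18%), with 388 higher at day 84 (3.60%) and 278 lower (2.58%). Genes bright only at day 28 could not enter. Among genes well above background on all 6 day 84 CCl4 and control arrays, 317 were higher and 292 lower. The count of 666 depends on the arrays: it was 1374 without day 28 CCl4 replicate 2, the array that stands apart, and fell to 404 without day 84 CCl4 replicate 1, 450 without day 28 CCl4 replicate 1, and 412 and 393 without day 84 control replicates 1 and 2. Among the lists, cholesterol genes held the most such calls, with 17 of 29 higher and 2 lower at day 84. Their median CCl4 effect was 0.09 at day 84 and −0.85 at day 28. For Sqle the effect was 2.39 at day 84 and −0.75 at day 28, a difference of 3.14 ± 0.33 (adjusted p = 0.000617). Control levels of Sqle differed between the days as well, at 1.76, 1.39 and 1.82 on day 84 and 3.43, 2.53 and 2.84 on day 28, while its CCl4 levels were 4.17, 4.10 and 3.87 on day 84 and 2.44, 2.14 and 1.96 on day 28. Insig2 and Abcg5 were the members that went lower, by 1.15 and 2.22.

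Matrix genes had larger effects at day 84 in 5 of 26 members and smaller in none, among them Mgp by 2.88 ± 0.46 (adjusted p = 0.00435) and Eln by 2.34 ± 0.34 (adjusted p = 0.00294). The median effect was 2.74 at day 84 and 1.49 at day 28. Among the 26 members, 5 passed the filter through the day 84 CCl4 arrays alone, which favours larger effects at day 84. Col1a1 differed by 0.45 between the days and was not called. Its day 28 CCl4 values were 2.80, 4.45 and 2.65, of which replicate 2 lay above all day 84 values. Mitosis genes had effects of similar median, 3.17 at day 84 and 3.46 at day 28, and 3 of 33 were lower at day 84, namely Aurka (−1.12), Foxm1 (−0.94) and Cenpa (−1.80). Of the cholangiocyte markers 3 of 15 were higher at day 84, among them Aqp1 by 2.10 and Cftr by 3.28, and of the PPARalpha targets 6 of 26 were lower. Cftr was not well above background on any control array of either day, so its difference rests on dim values. Of the 15 cholangiocyte markers, 7 passed the filter through the day 84 CCl4 arrays alone.

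**Figure D4:**
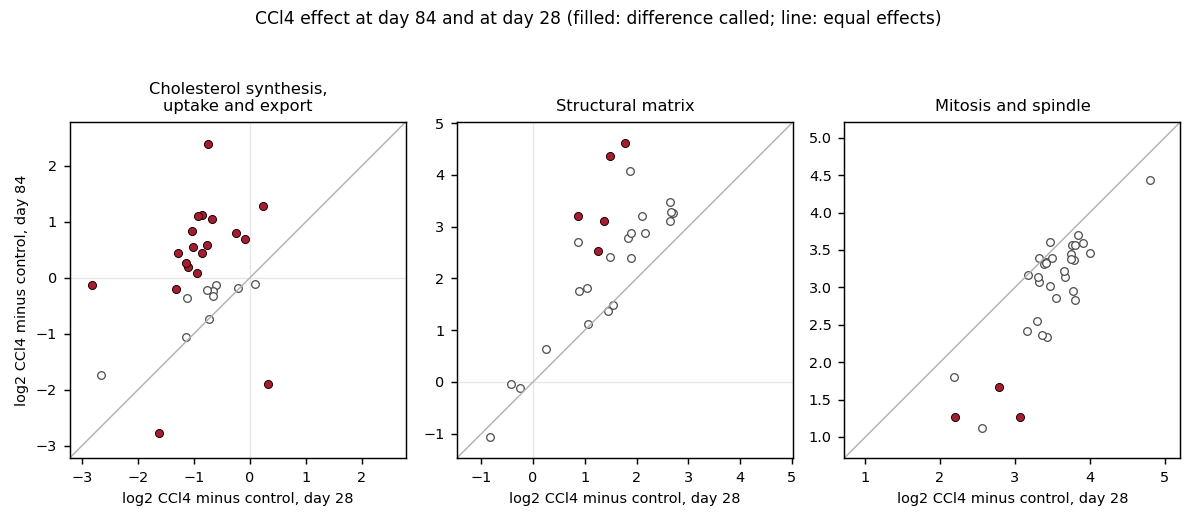
CCl4 effect at day 84 (y axis) against CCl4 effect at day 28 (x axis), each the log2 difference from the controls of that day, for the measured members of 3 gene lists. Filled points are genes whose effects differed between the days (adjusted p under 0.05), and the line marks equal effects. Of the cholesterol genes 17 of 29 are filled above the line, whereas 3 of 33 mitosis genes are filled, all below it.

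CCl4 livers of day 84 were also set against DEN livers of the same day. Of the 10783 genes 3686 differed (34.2%), 2020 higher with CCl4 (18.7%) and 1666 lower (15.5%). Genes bright only with CCl4 could enter this comparison, and genes bright only with DEN could not. Among genes well above background on all 6 day 84 CCl4 and control arrays, 1652 were higher and 1621 lower. DEN damages DNA, and CCl4 is known as a fibrogenic toxin. Matrix genes were higher with CCl4 in 21 of 26 members and lower in none, and stellate cell markers in 12 of 17. Of the 26 matrix genes, 5 passed the filter through the day 84 CCl4 arrays alone, which tilts their count towards CCl4. Col1a1 had 3.18, 3.41 and 4.10 in CCl4 livers, against 0.86, 1.21 and 0.95 in DEN livers, a difference of 2.56 ± 0.37 (adjusted p = 0.000172). Timp1 had 5.18, 5.55 and 5.66 in CCl4 livers and 3.18, 3.34 and 3.00 in DEN livers. Mitosis genes were higher with CCl4 in 19 of 33 and lower in 1, and 13 of the 33 passed the filter through the CCl4 arrays alone. NRF2 targets ran the other way, lower with CCl4 in 29 of 34 and higher in 1, and p53 targets were lower in 13 of 22. Aldh3a1, an aldehyde dehydrogenase that marks DEN-induced lesions in rat liver, had −1.35, −1.48 and −1.58 in CCl4 livers, against 5.80, 6.32 and 4.72 in DEN livers (−7.09 ± 0.27, adjusted p = 1.1e-09), and its CCl4 and control values overlapped.

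The urinary protein genes separated the compounds as well, since Mup5 had 1.0, 2.39 and 4.53 in CCl4 livers, against 9.14, 8.64 and 9.24 in DEN livers (−6.36 ± 1.27, adjusted p = 0.00182). At day 28 the CCl4 arrays had 8.70, 2.58 and 9.27 for this gene, so that replicate 2 of day 28 lay with the day 84 livers. Cox6a2 and Acot1 were higher with CCl4 than with DEN, by 6.55 ± 0.27 and 5.60 ± 0.47. Not all large rises were higher with CCl4 than with DEN. Bex1 had 3.50, 2.20 and 3.13 in CCl4 livers, against 4.54, 5.26 and 4.52 in DEN livers (−1.83 ± 0.62, adjusted p = 0.0353). Cyp2c24 had 2.70, 2.61 and 2.75 in CCl4 livers, against 2.95, 3.47 and 2.55 in DEN livers, and was not called (adjusted p = 0.40). CCl4 replicates 2 and 3 were on a slide without DEN arrays, and with slide as a fixed block 1965 genes differed between the compounds.

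**Figure D5:**
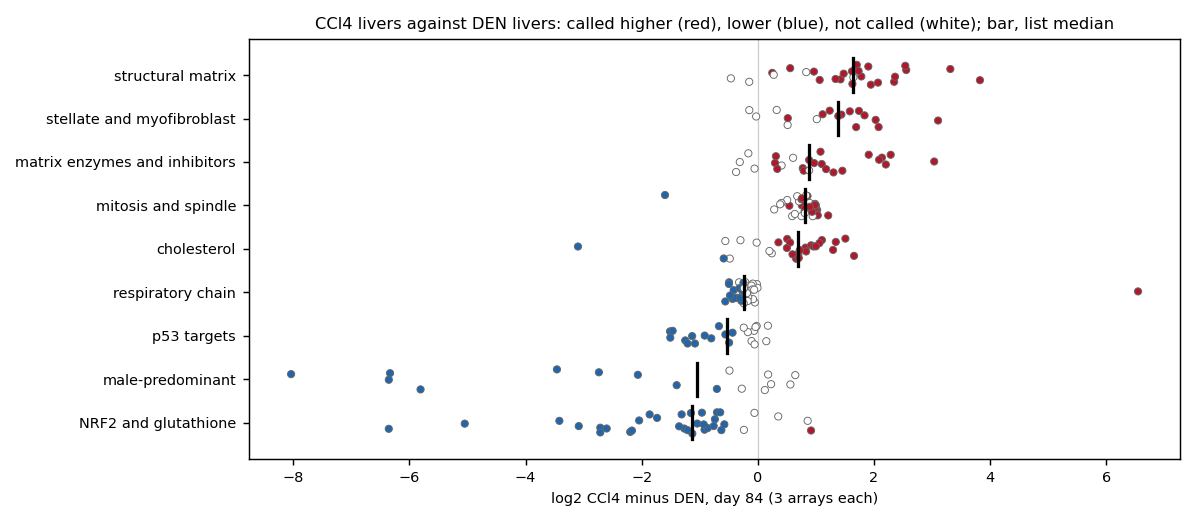
Difference between CCl4 and DEN livers of day 84 (log2, x axis) of the measured members of 9 gene lists (rows). Red points were called higher with CCl4, blue points called lower and white points not called, and black bars are list medians. Of the matrix genes 21 of 26 lie on the right as called, whereas 29 of 34 NRF2 targets lie on the left as called. Among the matrix genes 5, and among the 33 mitosis genes 13, passed the filter through the day 84 CCl4 arrays alone.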

How the data were processed

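RNA of whole rat liver was hybridised to 18 one-colour Agilent arrays, 3 for each compound and day. Spot intensities are the processed signals of Agilent Feature Extraction 10.7.1.1, already background-subtracted, per the file headers. The authors' deposited value table holds a ratio, the processed signal divided by 1 constant per array near its 75th percentile; 100% of probes lay within 0.01 (log2) of the scanner values. Here log2 values were scaled to each array's 75th percentile of processed signal. Probes were tested where they were well above background on all 3 day 84 CCl4 arrays or all 3 day 84 control arrays, without 1439 control spots and 18 outlier probes. Both side comparisons used the same genes, so genes bright only with DEN or only at day 28 were left out.

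Of 61537 probes, 28206 were matched to 15645 genes by RefSeq accession (GRCr8 gene table), and the probe of highest mean signal stood for a gene. Tests were made with limma 3.58.1 in R 4.3.3 with all 18 arrays, 1 mean per group and Benjamini-Hochberg adjustment. The number of arrays limits the precision. On simulated data with 200 of 10783 genes changed, 48%, 80% and 98% of genes changed by 0.5, 1 and 2 (log2) were recovered. In the data 64.9% of genes were called, where the adjustment is less strict, so these rates do not carry over to this comparison.

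The genes named were the 12 largest rises and 12 largest falls that did not overlap, up to 4 called members of each list by adjusted p, the first 3 members of each list, the genes the study followed up, and the 8 largest differences each way in both side comparisons. A few genes so chosen were left out of the text. Others, such as Fn1, Car3, Fbln1, G6pc1, H19 and Igf1, were chosen after their values were seen. Members and lists were chosen with earlier results of these data known. Alternatives changed the background correction, scaling, filter, arrays fitted, slide and replicate blocks, probe choice, value source and each array in turn.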

Additional observations from a re-analysis of the deposited data

Results flagged for a closer look

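The CCl4 effect differed between the days in 666 genes by the test of the difference itself. Effects higher at day 84 than at day 28, on the log2 scale, were led by Akr1b7 (6.0), Sult2a2 (5.23), Bex1 (4.59), Aard (4.11), Clec10a (3.87), Rnf208 (3.80), Meox1 (3.77) and Ropn1l (3.76). Of these, Akr1b7 was not well above background on any day 28 array of CCl4 or control rats, and its day 84 CCl4 values were 2.01, −0.17 and −1.74. Aard and Meox1 were not well above background on any day 28 control array and were so on 1 of 3 day 28 CCl4 arrays, so those differences rest on dim values too. Sult2a2, Bex1 and Rnf208 were well above background on 1 of 3 day 28 control arrays, so theirs rest in part on dim values. Effects lower at day 84 were led by Slc25a30 (−3.34), Cyp4a2 (−3.20), Fut1 (−3.02), Ccnf (−2.90), Colq (−2.74), Sprr1a (−2.57), Acsm5 (−2.36) and Shisa3 (−2.35). For Fut1, Colq and Sprr1a no control array of day 28 was well above background, so those differences rest on dim values. The probes of Ccnf disagreed in direction at day 84.

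Outside the named genes, 14723 probes without a matched gene passed the filter, and 8254 of them were called in CCl4 against control livers (56.1%), 3136 higher and 5118 lower. They were not analysed further here.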

How the results depend on the processing

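For CCl4 against control livers at day 84, the count of 6993 kept within 1.5 times its size under every alternative run, and leaving out any array of the groups gave 6344 to 6596 calls (2759 to 2941 higher, 3558 to 3775 lower). Scaling to the spike-ins turned the split, with 5851 higher and 718 lower. Of the 6993 genes, 3757 then stayed called in the same direction (53.7%), and 1994 changed sign, 153 of them as calls. Within the shared slide 5231 stayed called (74.8%), and with slide as a fixed block 5568 (79.6%). The difference between the days was less stable. It gave 1167 calls with normexp background correction (650 higher, 517 lower), 301 with spike-in scaling (88 higher), 397 without a filter (246 higher, 151 lower), 377 with the arrays of the groups alone (231 higher, 146 lower), and 409 with slide as a fixed block (178 higher). Leaving out an array gave 393 to 1374 calls (236 to 802 higher, 148 to 572 lower). CCl4 against DEN gave 910 higher with spike-in scaling, 1965 with slide as a fixed block (1016 higher, 949 lower), and 2718 to 3192 without an array (1524 to 1841 higher, 1194 to 1403 lower). Single genes that changed sign were Ugt2b7 with normexp (−0.14) and Hp with quantile normalization (0.058). With spike-in scaling they were Cox6c (0.0036), Smad7 (0.067), Hp (0.13), Cdh2 (0.094), Ndufs1 (0.37) and Cox4i1 (0.075), and with the mean of all probes Cdkn1a (0.40) and Pecam1 (−0.41). The cause of these moves was not tested. Same-numbered samples did not deviate together (correlations 0.0013, 0.013 and −0.023), and the replicate block gave 6959, 607 and 3618 calls for the 3 comparisons. Dim probes limit what can be said of genes near background.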
